A study of Mus musculus with 10 samples.

Results

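A set of 10 genes that are strongly expressed in tendon was followed in mouse tibialis anterior muscle, namely Tnmd, Scx, Mkx, Fmod, Chad, Cilp2, Comp, Thbs4, Kera and Tnc. They were picked by symbol as genes known from tendon, and all 10 were found among the 13492 genes of the deposited table. The tibialis anterior is a fast muscle of the lower hind limb whose fibres insert on a distal tendon. Muscles were taken from mice on a C57BL/6 background at 6 months of age after a fast of 3 h, and comprised 5 libraries labelled Lrtm1 KO and 5 labelled Lrtm1 WT, which the design text calls flox controls. The design text gives 4 per group and the labels give 5, and all 10 libraries were used. Litter 108 gave 2 knockout and 1 control libraries, litter 110 gave 1 and 2, and litter 112 gave 2 and 2. The sources used here give neither the tissue in which the floxed gene was deleted nor the sex of the animals.

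Tendon is made by tenocytes, fibroblasts that lay down parallel collagen fibrils and the proteins that space, link and organise them. Scx (scleraxis) and Mkx (mohawk) are transcription factors that specify and maintain these cells. Tnmd (tenomodulin) is a membrane protein used as a marker of mature tenocytes, while the other 7 genes encode proteins of the extracellular matrix. In whole muscle such transcripts can come from the tendon, the aponeurosis and the connective tissue around fibre bundles. In bulk RNA, fewer cells of a type and less RNA per cell cannot be told apart.

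Values are the authors' adjusted log2 CPM, where CPM is a gene's count relative to all counts of its library. Counts were not used here, so depth is unknown. The targeted gene, Lrtm1, goes against its label. Its mean of 6.12 ± 0.10 in the libraries labelled knockout lay above that of 5.68 ± 0.07 log2 CPM in the controls (SD, n = 5 each; limma adjusted p = 0.0344), and all directions below are between libraries as labelled. That call was lost without knockout 3 (0.0796), control 1 (0.144), control 5 (0.0790) or control 6 (0.0536), and in limma without its trend on mean expression (0.315). The sources used here do not state which part of Lrtm1 was deleted, so a value over the whole gene may check nothing. The values also had terms removed from them before deposit. Values centred by genotype spanned 3 dimensions, where libraries minus groups leave 8. In the tendon genes they cancel out within each litter, so litter was among these terms. Genotype and litter leave 6 residual dimensions among the 10 libraries, but the residuals of all genes spanned 3. Thus 3 further terms were counted in the limma fit, and these are called the removed terms below. Acta1, Ckm, Myh4 and the 8 other fibre markers that define the labelled tissue were all in the table, and their CPM summed to between 88350 and 102677 in a library.

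Promoter sequences were available for 7 of the 10 genes in RefSeq on GRCm38.p6, each covering 250 bases before and 50 after the annotated start. Comp, Scx and Mkx had no entry. Those of Fmod, Chad and Tnmd are printed because Fmod and Chad followed each other closely across the libraries and Tnmd followed them least among the 8 genes that are not transcription factors. Each is given 5′ to 3′ on the plus strand, with capitals marking CANNTG, the E-box to which scleraxis and other basic helix-loop-helix factors bind.
Fmod, chr1:134037004-134037303: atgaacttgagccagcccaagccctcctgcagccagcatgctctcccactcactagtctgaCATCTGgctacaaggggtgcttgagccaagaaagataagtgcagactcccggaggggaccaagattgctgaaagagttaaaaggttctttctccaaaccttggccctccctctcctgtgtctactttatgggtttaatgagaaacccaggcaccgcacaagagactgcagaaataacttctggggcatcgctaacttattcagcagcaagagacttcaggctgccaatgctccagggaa
Chad, chr11:94564797-94565096: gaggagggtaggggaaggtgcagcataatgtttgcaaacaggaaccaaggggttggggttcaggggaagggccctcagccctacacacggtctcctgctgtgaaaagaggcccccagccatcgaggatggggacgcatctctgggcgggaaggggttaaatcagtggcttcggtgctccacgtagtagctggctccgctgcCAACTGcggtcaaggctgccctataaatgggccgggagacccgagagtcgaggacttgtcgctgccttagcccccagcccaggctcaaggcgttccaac
Tnmd, chrX:133850758-133851057: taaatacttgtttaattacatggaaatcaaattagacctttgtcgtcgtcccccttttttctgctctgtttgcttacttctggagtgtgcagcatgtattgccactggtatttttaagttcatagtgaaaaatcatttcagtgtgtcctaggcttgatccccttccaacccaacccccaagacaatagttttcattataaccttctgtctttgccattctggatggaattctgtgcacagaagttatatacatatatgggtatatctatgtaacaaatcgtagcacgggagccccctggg
Searched on both strands, CANNTG occurred once in the Fmod window, once in the Chad window and nowhere in the Tnmd or Kera windows. It occurs in 72.3% of the 32851 promoter windows of this length, so its presence does not set these genes apart. TATAAA, the core of a TATA box, was found in the Chad window, starting 28 bases before the start site, and in 13.6% of all windows. CAGAC, a short motif bound by SMAD factors, was found at 2 positions in the Fmod window, in neither the Chad nor the Tnmd window, and in 49.6% of all windows. In the 3 printed windows no match of 1 motif overlapped a match of another. A match of letters is a description of the sequence and not a binding site.

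On GRCm38, in the GENCODE M21 annotation, Fmod lies on chromosome 1 (134037254 to 134048277), Chad on 11 (94565047 to 94569127) and Tnmd on X (133850980 to 133865577), all on the plus strand. Also described below are Thbs4 on 13 (92751590 to 92794818, minus strand), Cilp2 on 8 (69880369 to 69887687, minus strand) and Comp on 8 (70373558 to 70382066, plus strand). Tnc overlaps the transcript 8030451A03Rik on the opposite strand and Mkx the transcript AC148004.2, neither of which is in the table.

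The level of the tendon genes was set mostly by Fmod and Thbs4. Fmod encodes fibromodulin, a small leucine-rich proteoglycan that binds collagen fibrils, and Thbs4 encodes thrombospondin 4, a pentameric protein of tendon and muscle attachment. Together they made up 83.4% to 84.7% of the summed CPM of the 10 genes in every library. Divided by the length of the longest annotated transcript, Fmod stood at 30.1 ± 6.24 CPM per kb and Thbs4 at 27.7 ± 4.38 (SD, n = 10 libraries). Next came Chad at 6.09 ± 1.76 and Tnmd at 5.27 ± 0.84 CPM per kb. Kera (1.74 ± 0.40) and Comp (1.45 ± 0.35) followed, then Scx (0.85 ± 0.10), Cilp2 (0.81 ± 0.23) and Tnc (0.53 ± 0.09), and Mkx was lowest at 0.17 ± 0.05 CPM per kb. The ranges over libraries overlapped between Fmod and Thbs4, between Chad and Tnmd, between Kera and Comp, between Scx and Cilp2 and between Cilp2 and Tnc. The other neighbours in this order did not overlap.

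Summed over the 10 genes, CPM averaged 193.8 ± 22.1 in libraries labelled knockout against 240.3 ± 41.3 in controls (SD, n = 5 each). The knockout libraries ran from 167.0 to 227.6 CPM. Controls 1, 3, 4 and 6 ran from 235.3 to 275.4 CPM, above all of these, but control 5, at 173.3, lay below 4 of the 5 knockout libraries. That 1 library is therefore the source of the overlap between the groups in this sum, and it recurs in most of the genes below. It was singled out after its values were seen. The share of all genes whose groups come apart without it was not measured.

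**Figure D1:**
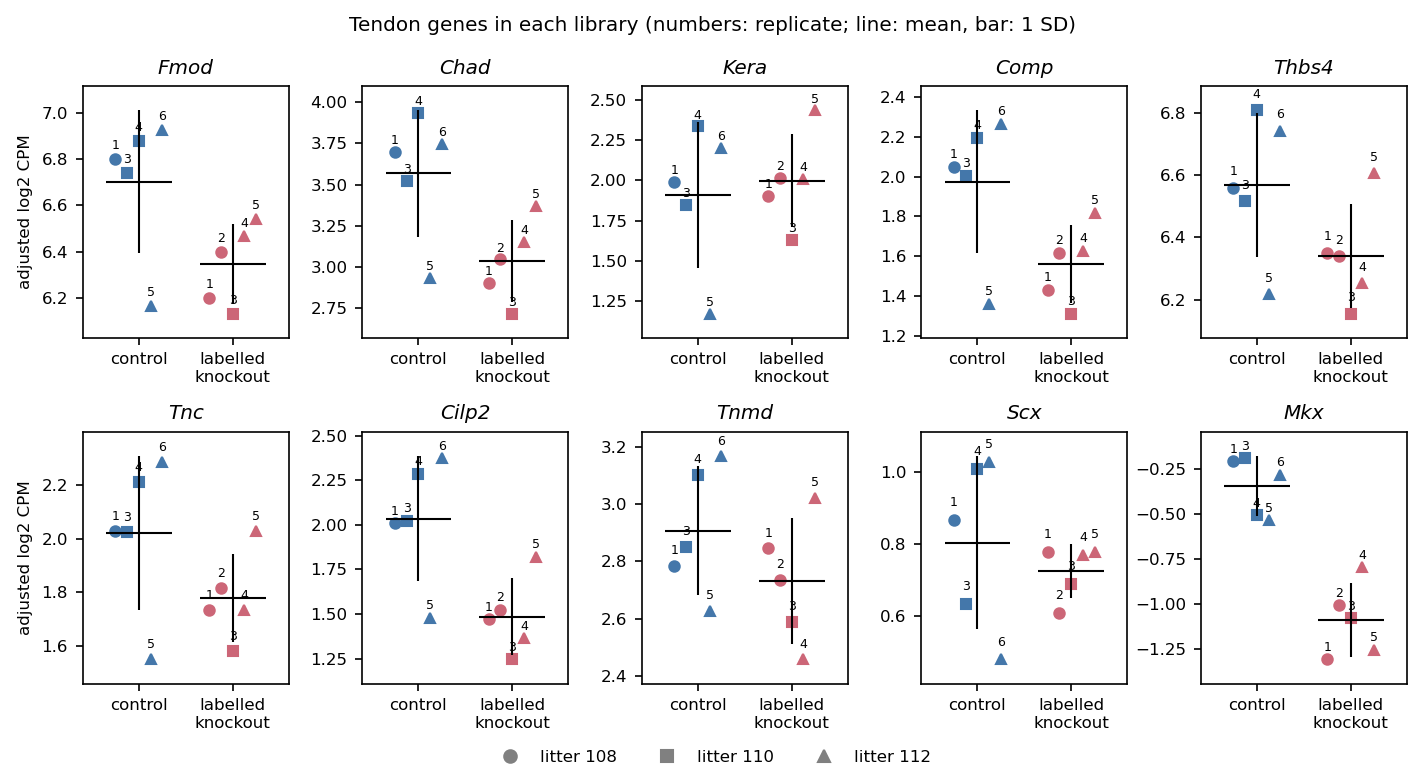
Adjusted log2 CPM of the 10 tendon genes in each library, with controls in blue, libraries labelled knockout in red, the symbol giving the litter and the number the replicate; the line is the mean and the bar 1 SD (n = 5 per group). Control 5 is the lowest control in every panel except that of Scx, and the groups are fully apart only in the panel of Mkx.

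None of the 9 genes that reached the expression minimum, a mean of 0 log2 CPM, passed the threshold of the limma fit, a Benjamini-Hochberg adjusted p of 0.05, in either direction. In that fit 41 of 12223 genes passed (0.335%), 0.27% higher and 0.0655% lower. At an unadjusted p under 0.05 there were 3 of the 9 (Cilp2, Chad and Fmod), all lower in the libraries labelled knockout, beside 10.1% of all genes tested and 3.83% lower. Of the 9 differences, 8 were negative and their median was -0.24 log2 units, where 51.4% of all genes tested lay below 0 and their median was 0.00. Since these genes move together across libraries, as described below, their differences are not separate observations. Counting only litter and genotype, a fit that ignores the removed terms, 1054 genes passed (8.62%, with 3.48% lower) and again none of the 9. In that fit 4 of the 9 had an unadjusted p under 0.05, all lower, beside 26.4% of all genes and 12.6% lower. None of the 9 had groups that did not overlap, beside 16.2% of tested genes and 7.63% lower.

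The largest differences among the tested genes were in matrix proteins known from both cartilage and tendon. Cilp2, a cartilage intermediate layer protein, stood at 1.47, 1.52, 1.25, 1.37 and 1.82 log2 CPM in libraries 1 to 5 labelled knockout, and at 2.01, 2.02, 2.29, 1.48 and 2.37 in controls 1, 3, 4, 5 and 6. All controls other than control 5 lay above all knockout libraries. The mean was 1.49 ± 0.22 against 2.03 ± 0.35 (SD, n = 5 each), a log2 difference of -0.55 (SE 0.20, 95% interval -0.996 to -0.102). In limma the adjusted p was 0.378, and 0.0966 with the removed terms not counted.

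Chad, chondroadherin, a leucine-rich repeat protein that binds cells and collagen, showed the same arrangement. Its values were 2.90, 3.04, 2.72, 3.15 and 3.37 log2 CPM in knockout libraries 1 to 5 and 3.70, 3.52, 3.94, 2.93 and 3.75 in controls 1, 3, 4, 5 and 6. Control 5 lay within the knockout range and the other 4 controls above it. The log2 difference was -0.53 (SE 0.20, 95% interval -0.97 to -0.09), with an adjusted p of 0.391 in limma. Chad lies on chromosome 11 inside Acsf2, which is on the other strand, and no annotated exon bases are shared. The log2 difference of Acsf2 was 0.05, with an adjusted p of 0.942.

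Fmod read 6.20, 6.40, 6.13, 6.47 and 6.54 log2 CPM in knockout libraries 1 to 5, and 6.80, 6.74, 6.88, 6.16 and 6.93 in controls 1, 3, 4, 5 and 6. Controls 1, 3, 4 and 6 again lay above every knockout library and control 5 near the bottom. The log2 difference was -0.36 (SE 0.15, 95% interval -0.69 to -0.02; limma adjusted p = 0.462). Comp, the cartilage oligomeric matrix protein and a close relative of thrombospondin 4, had means of 1.56 ± 0.20 and 1.97 ± 0.36 log2 CPM (SD, n = 5 each). Its difference was -0.41 (SE 0.20, 95% interval -0.86 to 0.03; limma adjusted p = 0.530), and control 5, at 1.36, was again the 1 control within the knockout range of 1.31 to 1.82.

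Smaller differences were measured in Thbs4 and Tnc. Thbs4 had a mean of 6.34 ± 0.17 in the libraries labelled knockout and 6.57 ± 0.23 log2 CPM in the controls, a difference of -0.23 (SE 0.12, 95% interval -0.50 to 0.05). Tnc, tenascin C, a matrix glycoprotein found where muscle joins tendon and induced by load, differed by -0.24 (SE 0.17, 95% interval -0.63 to 0.14). The groups overlapped through knockout 5 as well as control 5 in both genes. The limma adjusted p was 0.583 for Thbs4 and 0.700 for Tnc.

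Tnmd, the tenocyte membrane protein, did not separate the groups. It read 2.85, 2.74, 2.59, 2.46 and 3.02 log2 CPM in knockout libraries 1 to 5 and 2.79, 2.85, 3.10, 2.63 and 3.17 in controls 1, 3, 4, 5 and 6. The log2 difference of -0.18 (SE 0.15) had a 95% interval from -0.52 to 0.16 (limma adjusted p = 0.762). Kera, keratocan, a small leucine-rich proteoglycan of tendon and cornea, was the 1 gene with a difference above 0. Its means were 1.998 ± 0.288 and 1.909 ± 0.451 log2 CPM (SD, n = 5 each), a difference of 0.09 (SE 0.24, 95% interval -0.44 to 0.62; limma adjusted p = 0.938). The sign of that difference rested on single libraries, at -0.16 without control 5 and -0.06 without knockout 5.

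The 2 transcription factors were arranged in unlike ways. Scx showed 0.78, 0.61, 0.69, 0.77 and 0.78 log2 CPM in knockout libraries 1 to 5 and 0.87, 0.63, 1.01, 1.03 and 0.48 in controls 1, 3, 4, 5 and 6. The controls therefore spread on both sides of the knockout libraries, and control 5 was the highest library. The difference was -0.08 (SE 0.19, 95% interval -0.50 to 0.34; limma adjusted p = 0.931). Scx lies inside Bop1 on the other strand of chromosome 15, with no annotated exon bases shared, and the difference of Bop1 was 0.00 (adjusted p = 0.997).

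Mkx was below the expression minimum, at a mean of -0.72 log2 CPM, and was tested only in the fit without that minimum. It read -1.31, -1.01, -1.08, -0.80 and -1.26 log2 CPM in knockout libraries 1 to 5 and -0.21, -0.19, -0.51, -0.53 and -0.28 in controls 1, 3, 4, 5 and 6. Every knockout library lay below every control, the only one of the 10 genes where the groups did not overlap. Groups were likewise apart in 16% of all genes in the table, and in 7.53% with the libraries labelled knockout lower. In CPM the means were 0.47 ± 0.07 against 0.79 ± 0.09 (SD, n = 5 each). The log2 difference of -0.75 (SE 0.29, 95% interval -1.38 to -0.11) had a limma adjusted p of 0.417, which became 0.0241 when the removed terms were not counted, so its call turned on that choice. The latter call held in 4 of 10 fits with 1 library left out and was lost without knockout 1 (0.0608), 2 (0.0663), 3 (0.115) or 5 (0.0687) and without control 1 (0.151) or 3 (0.0685). In these fits without the minimum, 0.282% and 8.09% of all genes passed. The depth of the libraries is unknown, so the number of reads behind levels below 1 CPM cannot be given.

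**Figure D2:**
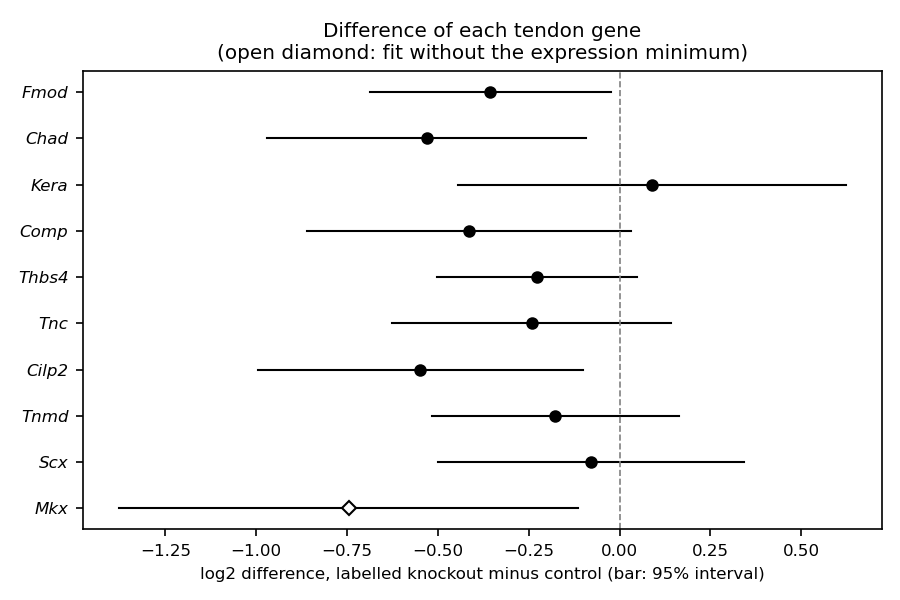
Log2 difference (labelled knockout minus control, x axis) of each tendon gene in the limma fit with the removed terms counted; the bar is the 95% interval before adjustment for the number of genes. The intervals of Cilp2, Chad, Fmod and Mkx lie below 0, and none of the 10 genes passed after adjustment over all genes.

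Within litters, 7 of the 10 genes were lower in the libraries labelled knockout in all 3 litters, and 6 of the 9 tested were, beside 24.2% of all genes tested. The exceptions were Tnmd, Scx and Kera. Litter differences and 3 further terms had been taken out of the values before deposit. The differences within the 3 litters are therefore a description and not independent repeats. Chad differed by -0.73 within litter 108, by -1.01 within 110 and by -0.08 within 112, which holds control 5. Fmod gave -0.50, -0.68 and -0.04, and Comp -0.53, -0.79 and -0.09, in the same order. Mkx was steadier, at -0.95, -0.73 and -0.62.

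Without control 5 the log2 differences became larger, -0.74 for Chad, -0.73 for Cilp2, -0.62 for Comp, -0.53 for Fmod, -0.40 for Tnc and -0.34 for Thbs4. None of the 9 genes passed in limma without that library, Fmod coming closest at an adjusted p of 0.0517, followed by Chad at 0.0801, Comp at 0.0816 and Cilp2 at 0.0927. With the removed terms not counted as well, Fmod (0.00421), Comp (0.00652), Chad (0.0107), Cilp2 (0.0108) and Tnc (0.0266) passed, when 14% of all genes did. Leaving out any other library moved none of the 9 past the threshold in either fit. Without knockout 3 the same differences became smaller, -0.34 for Chad, -0.40 for Cilp2, -0.26 for Comp and -0.23 for Fmod. Tnc and Thbs4 were both at -0.12 without that library. Control 5 also deviated most from its group over all tested genes, with a root mean square deviation of 0.18 log2 units where the others had 0.05 to 0.15. Its fibre markers summed to the lowest value of the 10 libraries, 88350 CPM. The part of these features of control 5 in the results was not tested.

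The structural genes varied together from library to library. After the group mean was taken out, Pearson's r over the 10 libraries had a median of 0.94 over the 28 pairs of the 8 genes other than Scx and Mkx, from 0.60 (Tnmd and Fmod) to 0.99 (Cilp2 and Tnc), and 20 of the 28 pairs were at 0.9 or above. Spearman's rho had a median of 0.88 over the same pairs. Over all pairs of tested genes the median r was 0.00, the median absolute r 0.50, and 5.1% of pairs were at 0.9 or above. These r are descriptions and carry no p, because values centred by genotype span 3 dimensions and the 10 libraries are not independent points. High positive and negative r are therefore common in this table. The separation of the 8 genes from the 2 transcription factors was made after their values were seen.

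Among the 8, Fmod and Comp ranked the libraries in almost the same order (r = 0.99, rho = 0.99), and Chad and Kera were as close (r = 0.99, rho = 0.98), although the mean of Kera did not differ the way that of Chad did. The tightest pair was Cilp2 with Tnc. Tnmd was nearest to Thbs4 (r = 0.90) and Cilp2 (0.89) and farthest from Fmod (0.60) and Chad (0.66). All 8 genes had their lowest centred value in control 5, and all 8 were highest among the knockout libraries in knockout 5. Knockout 3 was the lowest of its group in 7 of them, the exception being Tnmd, which was lowest in knockout 4.

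The transcription factors did not follow this pattern. Scx had r from -0.43 to -0.18 with the 8 genes and Mkx from -0.43 to 0.39, and the 2 had r = -0.49 with each other. No pair with Scx or Mkx reached 0.9. Both had the lowest log2 CPM of the 10 genes, which bears on how many reads lie behind them and not on their level per length, and the part of low counts in these r was not tested. For the whole set of 45 pairs the median r was 0.85.

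**Figure D3:**
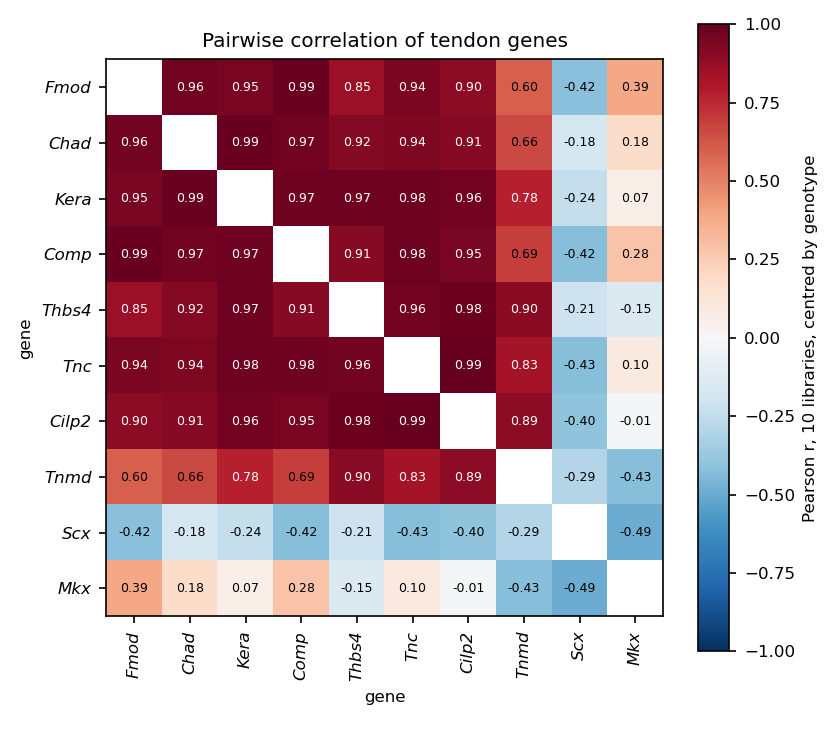
Pearson's r between each pair of the 10 tendon genes over 10 libraries after centring by genotype, on a colour scale from -1 to 1. The 8 structural genes form 1 block with r from 0.60 to 0.99, and the rows of Scx and Mkx stay at or below 0.39.

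The shared pattern rested in part on control 5. Leaving out, for each pair, the 2 libraries farthest from the median of the first gene lowered the median r of the 28 pairs to 0.82, and leaving out control 5 alone lowered it to 0.89. A single axis held 91.9% of the scaled variation of the 8 structural genes and 74.9% of that of all 10. Over all tested genes the first axis held 36.9%, in values that span 3 dimensions. No set of like size was measured beside the shares of the 8 and the 10, which are a description of genes grouped after their values were seen. The within-group SD of the tendon genes was also large beside that of other genes. Kera (0.38 log2 units) exceeded 99.1% of tested genes, Chad (0.32) 98.2%, Cilp2 (0.29) 97.4%, and Scx, the lowest at 0.18, 88.4%. Fmod (0.25) and Thbs4 (0.20), the most abundant of the set, exceeded 95.6% and 91.7%. The genes compared were not matched for expression level.

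**Figure D4:**
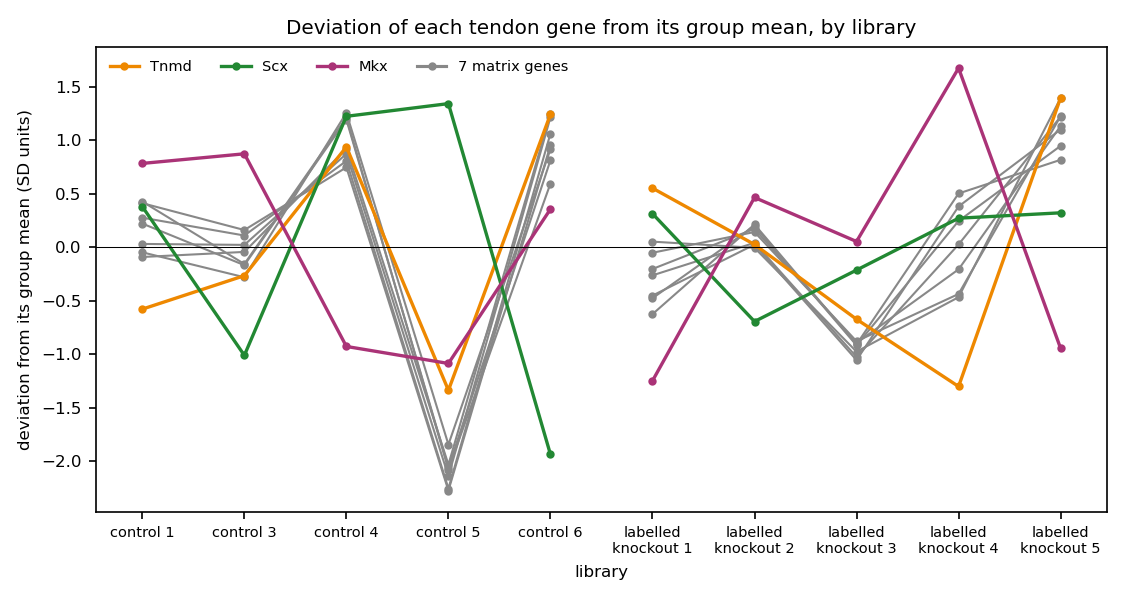
Deviation of each tendon gene from the mean of its group, in SD units of that gene (y axis), in each library (x axis). The 7 matrix genes in grey dip together in control 5 and knockout 3 and peak in controls 4 and 6 and knockout 5, with Tnmd in orange mostly following, while Scx in green is at its highest in control 5. Deviations cancel out within each litter, so dips and peaks of litter mates are not separate features.

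The 6 genes most like the tendon set across libraries were not on the tendon lists, though a gene of those lists came close. With the mean of the 10 scaled genes, the highest r outside the set were those of Cyb561d2, Raly, Ccdc9, Apoe, Pkig and Dtx3, all above 0.99. Htra3, of the other tendon and ligament genes described below, had r of 0.9986, beside 0.9990 for Dtx3. In all, 744 of the tested genes outside the set (6.14%) had r of at least 0.9. The log2 differences of the 6 most alike genes ran from -0.14 for Apoe, an apolipoprotein, to 0.07 for Ccdc9, and none passed in limma.

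Other genes of tendon and ligament, in a list of 25 of which 21 were tested, had a median log2 difference of -0.11 and none passed in limma. The 2 closest were P4ha1, a subunit of the enzyme that hydroxylates collagen prolines, at 0.22 (adjusted p = 0.281, and 0.0181 with the removed terms not counted), and Col8a2, a short-chain collagen, at -0.57 (adjusted p = 0.332, and 0.04996 with the removed terms not counted). Their median r with the tendon set was 0.80. The 11 collagens of tendon fibrils had a median difference of -0.09 with none past the threshold. Col1a2, of the main fibril-forming collagen, differed by -0.17 and had r of 0.94 with the set, and the fibril-associated Col12a1 differed by -0.28.

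Among small leucine-rich proteoglycans, the family of Fmod and Kera, none of 11 tested genes passed, 8 of them outside the tendon set. Aspn, asporin, was the closest, at 3.60 ± 0.01 against 3.86 ± 0.02 log2 CPM (SD, n = 5 each) and a log2 difference of -0.26 (adjusted p = 0.246, and 0.00312 with the removed terms not counted), yet its r with the tendon set was -0.43. Among thrombospondins, tenascins and cartilage intermediate layer proteins, the families of Comp, Thbs4, Tnc and Cilp2, none of 9 tested genes passed. Of the 9, 5 were outside the tendon set. Thbs1, a thrombospondin that restrains vessel growth, differed by 0.60 (adjusted p = 0.0859) and Thbs2 by -0.51 (adjusted p = 0.129). With the removed terms not counted both were past the threshold, at 0.0118 and 0.0132. Thbs2 had r of 0.90 with the tendon set and Thbs1 -0.38. Thus 2 other thrombospondins lay in opposite directions, and Thbs3 differed by 0.00 (limma adjusted p = 0.996). The groups did not overlap in Thbs1 or in Thbs2. Groups were likewise apart in 16.2% of all tested genes, and in 7.63% with the libraries labelled knockout lower.

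At the myotendinous junction, where fibres meet tendon, Col22a1, a collagen confined to tissue junctions, differed by -0.02. None of 7 tested junction genes passed, the closest being Nes, nestin, at 0.25 (adjusted p = 0.157, and 0.00428 with the removed terms not counted) and Col24a1 at -0.35 (0.320). TGF-beta and mechanical signalling acts upstream of Scx and Tnmd in tendon cells. The list of signalling genes had 20 tested, among them the Hedgehog genes Gli1 and Ptch1. Of these 1 rose and none fell, beside 0.335% of all tested genes. With the removed terms not counted 4 rose, Ptch1 among them, and 2 fell, beside 8.62% of all tested genes and 3.48% lower. The 1 gene past the threshold with those terms counted was Smad3, a transcription factor of TGF-beta signalling. It stood at 7.43 ± 0.05 against 7.09 ± 0.06 log2 CPM (SD, n = 5 each), a log2 difference of 0.35 (SE 0.06, limma adjusted p = 0.0418). That call held in 4 of the 10 fits with 1 library left out. It was lost without knockout 3 (0.0786), knockout 5 (0.0524), control 1 (0.0782), control 3 (0.0504), control 5 (0.0658) or control 6 (0.0761), and with all libraries when limma's trend was left out (0.315). Smad3 had r of 0.52 with the tendon set. Over the 20 genes the median log2 difference was 0.02, and 8 of the 20 lay below 0.

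Markers of other cell types in the sample were measured beside these genes. Of 16 markers of fibro-adipogenic progenitors, the resident fibroblasts of muscle, none passed in limma, the median difference was -0.05 and 12 of the 16 lay below 0. Their median r with the tendon set was 0.25, and Pdgfra, which defines them, differed by 0.04. The closest to the threshold were Col15a1 at 0.18 (adjusted p = 0.370, and 0.0340 with the removed terms not counted) and Cxcl14 at 0.19 (0.427), followed by Dpp4 at -0.44 (0.463). The summed CPM of the 16 ran from 959.6 to 1080 in the libraries labelled knockout and from 949.1 to 1115 in the controls, with control 5 lowest. Cartilage and bone were nearly absent, with 12 of 16 markers not in the table, Acan, Col2a1 and Ibsp among them, and a summed CPM from 4.61 to 6.29. Of the 2 tested, Col9a1 differed by -0.13 and Sox9 by 0.11.

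Adipocyte markers had negative differences in all 6 tested, with a median of -0.94 log2 units. Lep, leptin, differed by -2.21 and the lipid droplet gene Cidec by -1.20, neither past the threshold (adjusted p = 0.0642 and 0.121). Both passed with the removed terms not counted, at 0.0148 and 0.0152, as did Cfd (0.0156) and Adipoq (0.0396). In that fit 4 of the 6 were therefore lower, beside 8.62% of all tested genes past the threshold and 3.48% lower. The summed CPM of the 7 adipocyte genes in the table was 69.1 to 79.5 in the libraries labelled knockout and 80.0 to 96.8 in the controls, and control 5, at 83.8, kept to its group here. Fabp4, with a mean of 5.99 log2 CPM, weighs most in that sum and differed by only -0.05 (limma adjusted p = 0.857). Over the 6 tested adipocyte genes the median r with the tendon set was 0.51, highest in Plin1, which coats lipid droplets, at 0.94. The part of fat or connective tissue taken with the muscle in the tendon values was not tested.

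No marker of Schwann cells and peripheral nerve (7 tested), endothelium (7), smooth muscle and pericytes (6), macrophages (7), blood (5) or muscle fibres (11) passed in limma. Their closest genes were Pmp22 (-0.21) and Slc2a1 (-0.13), Kdr (0.15) and Pecam1 (0.06), Acta2 (0.14) and Pdgfrb (-0.10), Adgre1 (-0.23) and Mrc1 (-0.14), Hba-a2 (-0.17) and Hbb-bs (-0.08), and Myh1 (0.18) and Acta1 (0.15). The median r with the tendon set was -0.01 for Schwann cells and nerve, -0.03 for endothelium, -0.23 for blood, 0.44 for smooth muscle, 0.55 for fibres and 0.83 for macrophages. Macrophage markers summed to 38.8 to 42.3 CPM in the libraries labelled knockout and 39.0 to 45.1 in the controls, with control 5 the lowest control. Nerve markers summed to 63.3 to 125.9 and 80.9 to 114.4 CPM and did not follow the tendon genes.

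**Figure D5:**
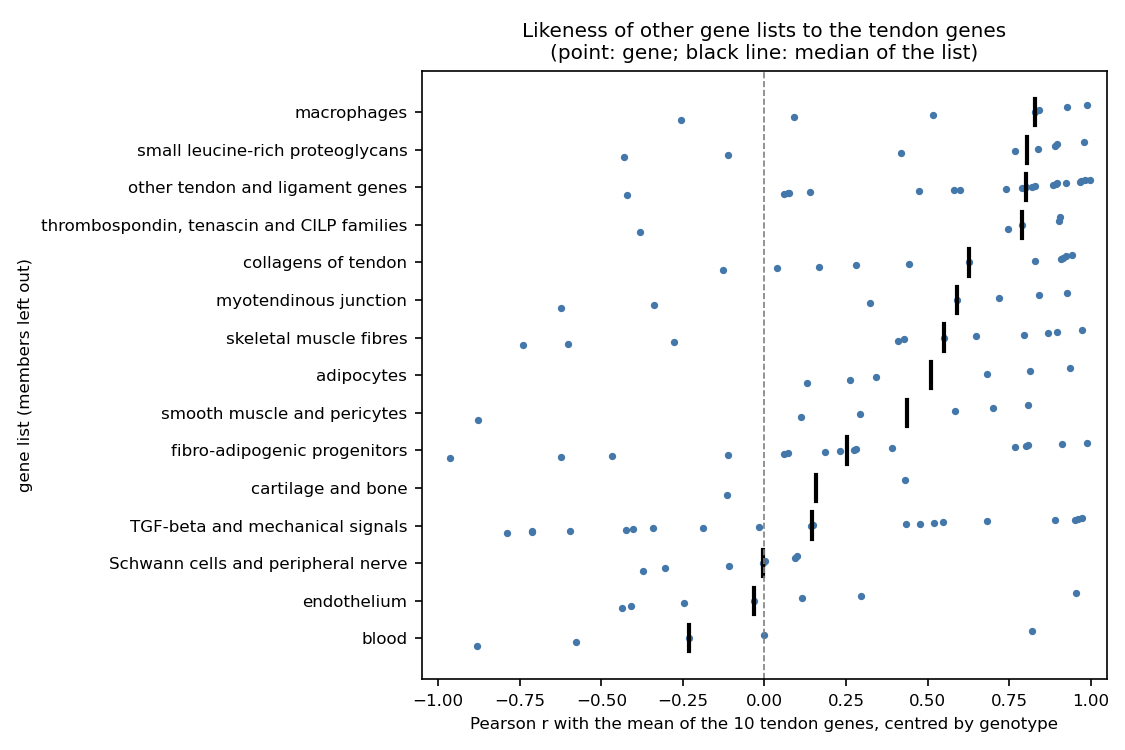
Pearson's r of single genes (points) with the mean of the 10 scaled tendon genes over 10 libraries centred by genotype (x axis), by gene list (y axis), with the median of each list in black. Macrophage markers, small leucine-rich proteoglycans and other tendon genes have medians of 0.80 to 0.83, and nerve, endothelium and blood lie near or below 0.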

How the data were processed

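Poly-A RNA of 10 tibialis anterior samples, 5 labelled Lrtm1 KO and 5 Lrtm1 WT, was sequenced from stranded oligo-dT libraries, per the labels' protocols. The submitters' processing notes name fastp, kallisto and limma without versions. No build, annotation, strand setting or list of adjusted terms is named in the sources used here. What the authors deposited is 1 table of adjusted log2 CPM for 13492 genes; counts were not used here, so depth and counting error are unknown.

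Values were used as deposited, without a pseudocount. Genes with a mean of at least 0 log2 CPM were tested (12223 kept, 1269 left out) with limma 3.58.1 in R 4.3.3 (lmFit, eBayes with a trend), two-sided, with genotype, litter and the 3 removed terms, and Benjamini-Hochberg adjustment over all genes. The 3 removed terms are the directions, beyond genotype and litter, in which no gene had residual variation (SD at most 8e-09, against at least 0.26 in the others). Litter differences had been removed from the values as well. SDs leave out the variation that was removed. The labels do not say that each library is a separate animal, and p-values therefore cover only the spread among these samples, which may be technical. Positions and transcript lengths came from GENCODE M21 (GRCm38). The fit was tested on simulated data. The members, the gene lists and the rule for named genes (all members, Lrtm1, from each list up to 4 genes past the threshold or the 2 closest, and the 6 most alike genes) were chosen with earlier results of these data known; further genes named are examples chosen after their values were seen. Alternatives were other terms, filters, log2(CPM + 1), median-centring, no trend, and each library left out.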

Additional observations from a re-analysis of the deposited data

Results flagged for a closer look

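The values of 2 genes stood apart from the rest of their group of 5 by Dixon's criterion at the 95% level, a gap to the nearest library of more than 0.71 of the group's range. Both were in control 5. Fmod was at 6.16 log2 CPM there, with the next control at 6.74, and Comp was at 1.36, with the next control at 2.004. In all, 20 groups (10 tendon genes in each of 2 genotypes) were examined, and chance flags about 1 in 20. Since the structural genes move together across libraries, the 2 flags are not separate observations.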

How the results depend on the processing

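Of the 9 tested tendon genes, none was higher past the threshold under any alternative run. The number lower stayed at 0 with litter and genotype only, with replicate numbers as a block, with no minimum (where Mkx was tested too) or one of 2 log2 CPM (where 4 of the 9 remained), with log2(CPM + 1), with median-centred libraries, without the trend, and with any 1 library left out. It was 1 (Cilp2) with genotype as the only term, where the litter terms taken out before deposit go uncounted too. It was 0 to 5 when libraries were left out with the removed terms not counted, an alternative chosen after seeing the data. Mkx, tested without the minimum, passed with litter and genotype only (adjusted p = 0.0241) and with genotype only (0.00254). The count over all genes was far less stable, at 41 in the reported fit, 1054 with the removed terms not counted, 2608 with genotype only, 128 with the replicate block in place of litter and 1 without the trend. It was 8 to 60 with 1 library left out, and, with the removed terms not counted as well, 454, 344, 162, 1347 and 480 without knockout 1 to 5 and 101, 400, 1012, 1705 and 1108 without control 1, 3, 4, 5 and 6; the cause was not tested. Same-numbered libraries did not deviate together (r from -0.85 to 0.45 over 4 pairs, of which number 4 spans 2 litters), so the numbers are not taken as pairs. The log2 difference of Kera turned to -0.16 without control 5 and -0.056 without knockout 5, in both fits; with 1 library left out it ran from -0.16 to 0.31. The other 9 tendon genes kept their sign. The median r over the 45 pairs was 0.85, 0.77 as Spearman's rho, 0.69 on values not centred by genotype, and 0.74 to 0.92 with 1 library left out. With depth unknown, no counting error can be given for the low Mkx and Scx.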
